A study of Mus musculus with 9 samples.

Results

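The 3 PanIN libraries were set against the 6 libraries of the stages on either side of them, 3 Healthy and 3 Tumor, out of 9 in all. Each difference is the PanIN group mean minus the mean of the Healthy and Tumor group means on the log2 scale, which sets the precursor stage against the stages before and after it on average. RNA was taken with a column micro kit, made into directional libraries, and comes from conventional type 1 dendritic cells (cDC1) of mouse lymph nodes beside the pancreas, and libraries were grouped by the neoplasia stage in the labels alone. Healthy nodes came from animals labelled as healthy, PanIN nodes drained pancreatic intraepithelial neoplasia, the precursor lesion of pancreatic cancer, and Tumor nodes drained a tumor. KPC, named in the title of the series, is a genetic mouse model of pancreatic cancer. The labels state no genotype, age or treatment for any library, and do not say which animals served as Healthy. Whether a library is 1 animal or a pool is not given either, so a p-value here measures the spread among libraries, part of which may be technical.

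Cells that sense type I interferon switch on a broad set of antiviral genes through a complex of STAT and IRF proteins that binds the interferon-stimulated response element in their promoters. The OAS enzymes make short 2'-5' linked oligoadenylates on meeting double-stranded RNA as a second messenger of antiviral defence, while proteins of the interferon-inducible IFI200 family, to which the DNA sensor AIM2 belongs, carry HIN domains that bind DNA. In cDC1, which present captured dead-cell antigen to cytotoxic T cells, interferon sensing is known to support that presentation in tumors.

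Libraries held 32150281 to 68934430 estimated counts. The defining cDC1 markers were abundant in each: Xcr1 stood at 249 to 1081 CPM (counts scaled to the size of each library), Clec9a at 177 to 669 and Irf8 at 1025 to 3330. The summed CPM of 15 cDC1 markers was 5100 to 17700 in Healthy, 6560 to 12800 in PanIN and 5630 to 10400 in Tumor. Healthy 2 and Healthy 3 lay at opposite ends of principal component 1, which held 25.1% of the variance. One title code is shared by Healthy 1, PanIN 1 and Tumor 1. Every other library has a title code of its own.

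No gene reached an adjusted p of 0.05. Of 24133 genes, 0 were called (0%) at a Benjamini-Hochberg adjusted p under 0.05 by the quasi-likelihood test of edgeR, and the smallest adjusted p was 0.102. At an unadjusted p under 0.05 there were 921 genes (3.82%), of which 732 were higher in PanIN (3.03% of genes) and 189 lower (0.783%). The higher side thus held 79.5% of them, against 59.7% by DESeq2, 57.1% by limma-voom with sample weights and 94.8% to 95.1% by limma on TPM. Leaving out a library moved these counts: 1595 were higher and 977 lower without Healthy 2 (62% higher), 861 and 490 without Healthy 3 (63.7%), 352 and 91 without PanIN 2, 311 and 98 without PanIN 3, and 1023 and 368 without PanIN 1. With Healthy 2 and Healthy 3 both left out, tried after the data were seen, they were 982 and 271. DESeq2 called 44 genes, 36 of them higher, and limma-voom 118. A stricter test asked for a difference from Healthy and from Tumor in the same direction, taking the larger of the 2 one-sided p-values. By edgeR it called 0 genes (0%). At an unadjusted p under 0.05 it held 117 genes (0.485%): 82 were higher in PanIN (0.34%) and 35 lower (0.145%). That count was 282 without Healthy 2, 296 without PanIN 1, 61 without PanIN 2 and 146 with Healthy 2 and Healthy 3 both left out. DESeq2 called 5 (Gp2, Ctrb1, Ifi203, Igkv12-41 and Gm47421, named after their values were seen). All 3 PanIN libraries lay above all 6 others in 232 genes (0.961%) and below them in 146 (0.605%).

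On the higher side were many genes of the interferon response. The 7 lists of such genes, chosen with earlier results of these data known, held 137 tested members, of which 124 (90.5%) had a positive log2 fold change, where 45.5% of all genes did. Their median was 0.59 against -0.04 over all genes tested. An unadjusted p under 0.05 was reached by 61 members higher in PanIN (44.5%, against 3.03% of all genes) and by 0 lower. In 20 members (14.6%, against 0.961%) the 3 PanIN libraries lay above all 6 others, and in 0 below. The stricter test had 20 members at an unadjusted p under 0.05, all higher. PanIN had the highest of the 3 group means in 109 members (79.6%, against 30.6% of all genes), Tumor in 23 and Healthy in 5. The shares of all genes given here are also those to set beside the counts of each list below. None of the 137 reached an adjusted p of 0.05 by edgeR; DESeq2 called 10 and limma-voom 40.

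The mean log2 CPM over these 137 genes was 4.82, 4.99 and 4.32 in Healthy 1 to 3, 5.22, 5.75 and 5.67 in PanIN 1 to 3, and 5, 4.92 and 5.02 in Tumor 1 to 3. PanIN libraries were thus above all others, with PanIN 1 nearest to them. Side by side, the median of the members was 0.67 for PanIN minus Healthy, 0.45 for PanIN minus Tumor and 0.24 for Tumor minus Healthy; the first 2 differences share the PanIN libraries, and all 3 come from the same 9. Within the shared title code, with 1 library a group and no replicates, the median was 0.27 with 105 of 137 higher (52.3% of all genes were), while the 6 libraries without that code gave 0.75 with 127 higher (52.7% of all genes were). Among those 6 libraries each has its own code, so stage and code cannot be told apart there. Left out in turn from all 9, single libraries gave medians of 0.47 to 0.74. The count at an unadjusted p under 0.05 was 35 without PanIN 3 and 40 without PanIN 2, where 1.22% and 1.36% of all genes were higher at that p, and 69 with Healthy 2 and Healthy 3 both left out, where 3.59% were. The count of members above all others was 34 without Healthy 2, 61 without PanIN 1 and 34 with Healthy 2 and Healthy 3 both left out, where 1.81%, 5.45% and 3% of all genes lay above.

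**Figure D1:**
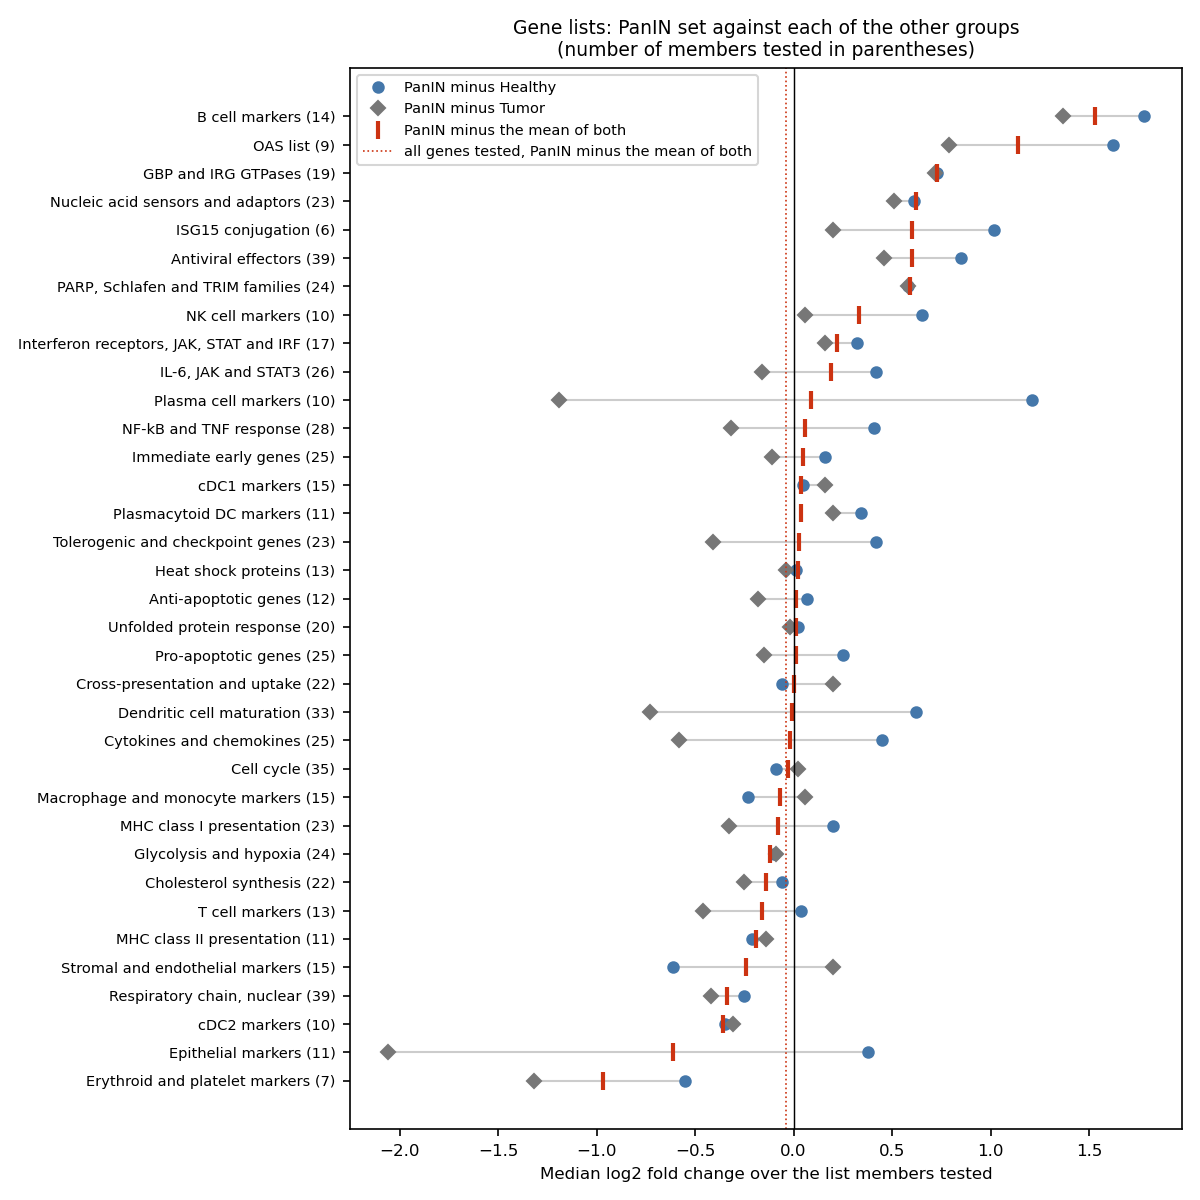
Median log2 fold change (x axis) of each gene list with at least 5 tested members (y axis), for PanIN minus Healthy (blue circles), PanIN minus Tumor (grey diamonds) and PanIN minus the mean of both (red bars); the dotted line is the median of all genes tested, -0.04. Interferon lists such as the OAS list (0.79 to 1.62) lie right of 0 on both sides, while Dendritic cell maturation spans 0 (-0.73 to 0.62). Acinar and neutrophil lists, whose medians rest on genes near 0, are drawn by library in another plot.

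The OAS list had the highest median of the 7 interferon lists, 1.14 over 9 members, with 8 higher, 6 of them at an unadjusted p under 0.05. Oas3 (ENSMUSG00000032661, GRCm38 chromosome 5, 120753098 to 120777661, minus strand), an oligoadenylate synthetase of long double-stranded RNA, stood at 7.59, 5.38 and 5.72 CPM in Healthy, 14.9, 35.5 and 31.9 in PanIN, against 8.84, 11.2 and 8.65 in Tumor. Every PanIN library lay above every other one, PanIN 1 by the least. Its log2 fold change was 1.83 (SE 0.28, Benjamini-Hochberg adjusted p = 0.147 by edgeR). Side by side it was 2.14 over Healthy and 1.52 over Tumor. Oas2, a neighbouring gene on the same strand (120730333 to 120749853), stood at 0.93, 1.05 and 2.52 CPM in Healthy, 3.67, 10.5 and 13.2 in PanIN, with 2.55, 0.665 and 2.48 in Tumor. PanIN again lay above the other 6 libraries, while Healthy and Tumor overlapped. Oas2 had the largest log2 fold change among the genes named by the rule, 2.43 (SE 0.52, Benjamini-Hochberg adjusted p = 0.613 by edgeR). Oas1a, at 6.05 to 7.37 CPM in Healthy, 14.0 to 21.3 in PanIN and 9.60 to 11.9 in Tumor, had a log2 fold change of 1.14 (SE 0.23), and its share of reads is uncertain, since 68.8% of its transcript's 31-base words are found in other genes.

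Oasl2, which encodes an OAS-like protein, stood at 5.46, 5.62 and 7.79 CPM in Healthy, 13.0, 28.8 and 28.6 in PanIN, against 15.8, 11.8 and 16.8 in Tumor, so PanIN 1 lay among the Tumor libraries. Oasl1, another of these, stood at 33.8, 7.35 and 10.7 CPM in Healthy, 51.2, 45.1 and 62.9 in PanIN, with 62.8, 36.8 and 49.9 in Tumor; here PanIN and Tumor overlapped.

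**Figure D2:**
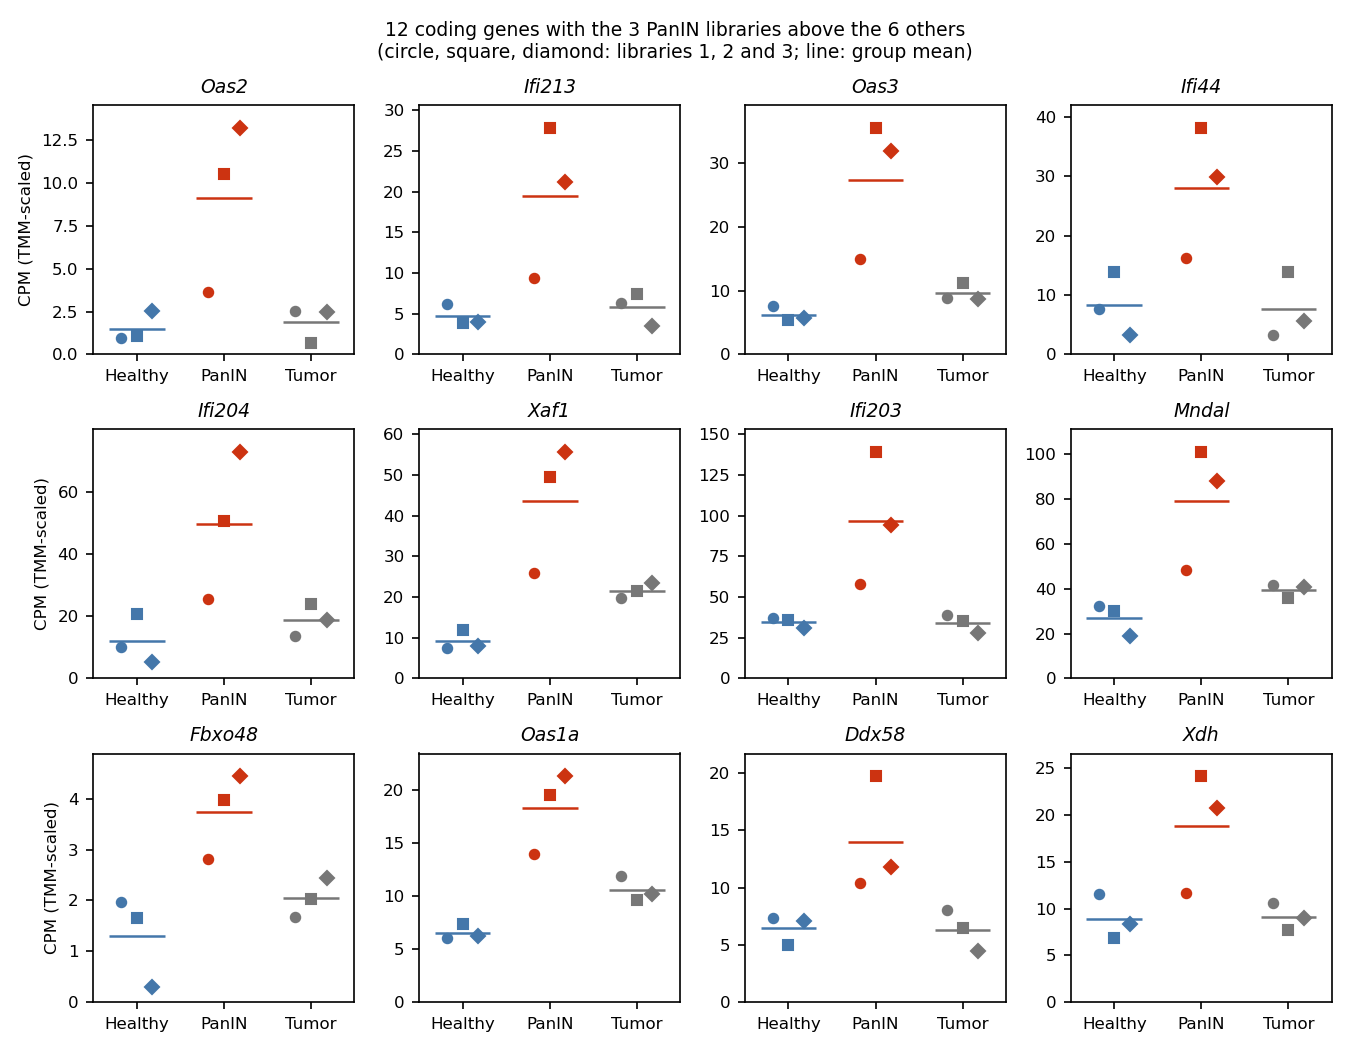
Level in CPM (y axis, from 0) of the 12 coding genes with the largest positive log2 fold change among those where the 3 PanIN libraries lay above the 6 others, by group (x axis); circles, squares and diamonds are libraries 1, 2 and 3 and lines are group means. PanIN 1 is the lowest PanIN library in all 12 panels, as in Oas3 at 14.9 CPM against 31.9 and 35.5.

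The nucleic acid sensors had 23 of 23 tested members higher and a median of 0.62. Of these 11 had an unadjusted p under 0.05, and in 6 PanIN lay above all 6 other libraries. Over all genes, 3.03% were higher at that p and in 0.961% PanIN lay above all others. Many of the sensors belong to the IFI200 family. Its 12 members, put together by symbol once the data had been seen, were all higher (45.5% of all genes were), with a median of 1.19. Of the 12, 8 had an unadjusted p under 0.05 and 5 had PanIN above all others. All 12 had the highest group mean in PanIN, as did 30.6% of all genes. Ifi203 (GRCm38 chromosome 1, 173920407 to 173942672, minus strand), a HIN-domain gene of this family, stood at 36.9, 36.0 and 30.8 CPM in Healthy, 57.7, 139 and 94.0 in PanIN, against 38.7, 35.1 and 27.7 in Tumor. Healthy and Tumor were level with each other, and PanIN lay above both. The log2 fold change was 1.5 (SE 0.24, Benjamini-Hochberg adjusted p = 0.171 by edgeR), and 1.49 over Healthy and 1.52 over Tumor side by side. In the test against both groups Ifi203 had the smallest unadjusted p of any gene, 0.00027 by edgeR.

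Mndal, a neighbour and relative whose annotation overlaps that of Ifi203 on the same strand, stood at 32.1, 29.9 and 18.8 CPM in Healthy, 48.4, 101 and 88.1 in PanIN, with 41.7, 35.7 and 40.9 in Tumor. Ifi213 stood at 6.25, 3.88 and 3.94 CPM in Healthy, 9.37, 27.8 and 21.2 in PanIN, against 6.31, 7.48 and 3.51 in Tumor. Ifi204 stood at 10, 20.7 and 5.15 CPM in Healthy, 25.4, 50.5 and 72.7 in PanIN, with 13.7, 23.8 and 18.7 in Tumor. In each of the 3 genes PanIN 1 was the lowest PanIN library and still above the other 6. These relatives resemble each other: 40.1% of the 31-base words of Mndal, 46% of those of Ifi204, 20.7% of Ifi203 and 12.6% of Ifi213 also occur in other genes, so how reads were split among them is uncertain. Aim2, which nucleates an inflammasome on cytosolic DNA, stood at 37.0 to 49.6 CPM in Healthy, 47.4 to 97.1 in PanIN and 60.2 to 75 in Tumor. PanIN overlapped both other groups in Aim2 (log2 fold change 0.43, SE 0.22).

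Among RNA sensors, Ddx58, which encodes RIG-I, stood at 7.35, 5.04 and 7.12 CPM in Healthy, 10.4, 19.7 and 11.8 in PanIN, against 8.03, 6.49 and 4.51 in Tumor (log2 fold change 1.12, SE 0.30, Benjamini-Hochberg adjusted p = 0.891 by edgeR). Ifih1, which encodes MDA5, stood at 21.9 to 35.0, 34.2 to 55.2 and 30.7 to 38.9 CPM, with PanIN 1 among the others. The adaptors and DNA-sensing genes had smaller values, with log2 fold changes of 0.16 for Mavs (SE 0.24), 0.20 for Myd88 (SE 0.29), 0.22 for Tmem173, which encodes STING (SE 0.19), and 0.40 for Cgas (SE 0.33). Tlr9, a receptor for bacterial DNA in endosomes, had an unadjusted p of 0.0415 by edgeR with another shape: it stood at 64.4 to 139 CPM in Healthy and 54.3 to 110 in PanIN but 24.7 to 39.4 in Tumor, so PanIN was level with Healthy and above Tumor.

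To show starts with and without a shared word, the RefSeq promoters (GRCm38.p6, 250 bases before to 50 after a start) of 6 interferon list members are printed 5' to 3' on the gene's strand, with each match to GAAA, then NN (any bases), then GAAA, a core of the interferon-stimulated response element, in capitals. They are Oas3 at chr5:120777610-120777909, Oas1a at chr5:120907476-120907775, Ifi203 at chr1:173942443-173942742, Mndal at chr1:173880138-173880437 and Ifi213 at chr1:173599223-173599522, all on the minus strand of the chromosome, and Xaf1 at chr11:72301379-72301678 on the plus strand.
Oas3: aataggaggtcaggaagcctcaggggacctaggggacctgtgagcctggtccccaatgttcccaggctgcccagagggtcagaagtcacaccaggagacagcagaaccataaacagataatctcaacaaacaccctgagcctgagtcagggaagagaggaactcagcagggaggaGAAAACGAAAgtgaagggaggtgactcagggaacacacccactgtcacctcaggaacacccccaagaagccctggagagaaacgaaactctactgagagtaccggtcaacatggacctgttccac
Oas1a: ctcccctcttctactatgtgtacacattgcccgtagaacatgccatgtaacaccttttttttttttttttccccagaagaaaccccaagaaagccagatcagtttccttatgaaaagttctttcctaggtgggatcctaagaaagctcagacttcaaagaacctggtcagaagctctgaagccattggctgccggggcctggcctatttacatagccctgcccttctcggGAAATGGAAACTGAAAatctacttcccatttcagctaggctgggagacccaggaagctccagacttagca
Ifi203: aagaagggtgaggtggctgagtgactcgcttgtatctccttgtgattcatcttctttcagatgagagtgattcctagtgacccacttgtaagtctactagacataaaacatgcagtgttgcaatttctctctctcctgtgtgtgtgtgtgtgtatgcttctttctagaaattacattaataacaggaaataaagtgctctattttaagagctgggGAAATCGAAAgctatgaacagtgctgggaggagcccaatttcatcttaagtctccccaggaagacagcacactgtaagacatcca
Mndal: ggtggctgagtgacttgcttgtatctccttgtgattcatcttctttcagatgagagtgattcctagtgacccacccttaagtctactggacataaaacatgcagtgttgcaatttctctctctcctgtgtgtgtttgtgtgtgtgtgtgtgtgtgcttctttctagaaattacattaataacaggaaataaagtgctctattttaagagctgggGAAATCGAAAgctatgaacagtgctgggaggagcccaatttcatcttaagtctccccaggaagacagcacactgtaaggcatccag
Ifi213: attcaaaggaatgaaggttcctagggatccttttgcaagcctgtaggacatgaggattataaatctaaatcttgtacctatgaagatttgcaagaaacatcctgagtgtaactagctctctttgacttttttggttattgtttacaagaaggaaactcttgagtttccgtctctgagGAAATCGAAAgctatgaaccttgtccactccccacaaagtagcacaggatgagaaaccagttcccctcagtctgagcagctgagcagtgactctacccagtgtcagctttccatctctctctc
Xaf1: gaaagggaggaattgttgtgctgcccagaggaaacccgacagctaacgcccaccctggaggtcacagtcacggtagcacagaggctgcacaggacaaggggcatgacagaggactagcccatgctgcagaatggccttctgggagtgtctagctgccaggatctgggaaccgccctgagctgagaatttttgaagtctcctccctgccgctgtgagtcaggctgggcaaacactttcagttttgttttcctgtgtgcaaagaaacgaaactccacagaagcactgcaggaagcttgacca
The window of Xaf1 held no match, nor did a second listed start of Ifi203. The match began 75 bases before the start in Oas3, 73 in Ifi213, 36 in Mndal and 35 in Ifi203, and 2 overlapping matches began 20 and 14 bases before the start in Oas1a. Both strands were searched. Such a word lay in 1079 of 27025 promoters in the table (3.99%) and in 566 of the 14102 tested genes with a promoter there (4.01%). Of the 106 matched members of the 7 interferon lists 50 held it (47.2%), as did 10 of 11 matched GBP and IRG genes, 9 of 11 IFI200 genes and 4 of 6 OAS genes. Of the 12 named genes with the largest positive log2 fold change, 9 were matched and 6 held it (66.7%). It lay in 2 of the 29 matched nuclear genes of the respiratory chain (6.9%) and in 0 of the 10 matched genes among the 12 named with the largest negative log2 fold change. The lists are of known interferon targets, so the excess describes the lists; a match is no sign of binding.

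The antiviral effectors, proteins that block steps of virus replication, had a median of 0.60 over 39 tested members, with 34 higher. Of the 39, 19 had an unadjusted p under 0.05 and 4 had PanIN above all others. Over all genes, 3.03% were higher at that p and in 0.961% PanIN lay above all others. Xaf1 (GRCm38 chromosome 11, 72301629 to 72313733, plus strand), an interferon-induced promoter of apoptosis, stood at 7.59, 11.8 and 8.04 CPM in Healthy, 26.0, 49.4 and 55.6 in PanIN, with 19.7, 21.6 and 23.5 in Tumor. Here the groups stepped from Healthy to Tumor to PanIN without overlap. Its log2 fold change was 1.64 (SE 0.25, Benjamini-Hochberg adjusted p = 0.147 by edgeR), made of 2.26 over Healthy and 1.02 over Tumor. Ifi44, an interferon-induced antiviral protein, stood at 7.70, 13.9 and 3.35 CPM in Healthy, 16.2, 38.1 and 29.8 in PanIN, against 3.28, 13.9 and 5.65 in Tumor, with Healthy and Tumor overlapping (log2 fold change 1.82, SE 0.47).

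Mx2, an antiviral dynamin-like GTPase, stood at 4.16, 4.54 and 2.65 CPM in Healthy, 7.32, 19.4 and 22.7 in PanIN, with 6.80, 5.39 and 9.10 in Tumor, with PanIN 1 inside the Tumor range (log2 fold change 1.67, SE 0.35). Its relative Mx1 stood at 38.9 to 74.3 CPM in Healthy, 127 to 234 in PanIN and 87.5 to 145 in Tumor (log2 fold change 1.17, SE 0.27). Ifit3, which binds foreign RNA with its IFIT partners, stood at 2.82, 6.38 and 3.96 CPM in Healthy, 4.75, 16.7 and 9.78 in PanIN, against 2.06, 2.57 and 2.75 in Tumor. Its 61.8% of shared 31-base words leave its reads uncertain. Some effectors stood apart from the pattern: Ifitm2, an inhibitor of virus entry, stood at 16.5 to 18.3, 27.0 to 45.1 and 58.9 to 99.5 CPM, with PanIN between the others, and Bst2, which tethers budding virus, had a log2 fold change of 0.04 (SE 0.19).

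The list of Isg15 conjugation, by which the ubiquitin-like Isg15 is attached to proteins, had a median of 0.60 over 6 members, with 5 higher, and its members had different shapes. Isg15 itself stood at 16.6, 18.3 and 10.1 CPM in Healthy, 38.2, 46.1 and 46.5 in PanIN, with 44.6, 44.4 and 37.8 in Tumor. PanIN and Tumor were level, and Healthy was lower. Its unadjusted p by edgeR was 0.00246 against the mean of both groups, and 0.861 in the stricter test against each. Herc6, the ligase that joins Isg15 to its targets in mice, stood at 40.1, 21.7 and 25.6 CPM in Healthy, 64.0, 61.6 and 72.6 in PanIN, against 49.2, 39.1 and 56.6 in Tumor, with PanIN above both. Usp18, which removes Isg15 and dampens receptor signalling, was likewise above both, at 36.0 to 54.2, 73.3 to 92.8 and 54.3 to 69.7 CPM.

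The PARP, Schlafen and TRIM families had 23 of 24 members higher, with a median of 0.59, 0.58 over each of Healthy and Tumor, and 23 with the highest group mean in PanIN. Parp14, an ADP-ribosyltransferase, stood at 58.6, 76.9 and 50.8 CPM in Healthy, 90.3, 163 and 142 in PanIN, with 66.4, 71.9 and 82.8 in Tumor, with PanIN above the other 6 (log2 fold change 0.96, SE 0.21). Slfn3, a Schlafen gene with an unadjusted p of 0.0092 by edgeR, was level with Healthy and above Tumor: it stood at 3.81 to 5.07 CPM in Healthy, 3.56 to 6.48 in PanIN and 0.879 to 1.36 in Tumor. The GBP and IRG GTPases, which act on the membranes of intracellular pathogens and answer to interferon gamma as well, had 17 of 19 members higher with a median of 0.73. Ifi47, an IRG protein, stood at 22, 22.9 and 14.7 CPM in Healthy, 33.7, 37.7 and 53.3 in PanIN, against 21.6, 26.3 and 20.3 in Tumor, and Igtp, another, stood at 11.9 to 33.7, 39.0 to 52.2 and 23.3 to 28.6 CPM. Gbp2 (log2 fold change -0.01, SE 0.28), Gbp4 (0.23, SE 0.41) and Gbp8 (0.20, SE 0.44) differed by less than their SE. All 19 were higher within the shared title code.

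Upstream are the receptors, kinases and factors that carry the interferon signal. Their median was 0.22 over 17 members, with 14 higher, 2 at an unadjusted p under 0.05 and 0 with PanIN above all others. Those 2 were Irf7 and Stat2. Irf7, the factor that amplifies interferon production, stood at 77.9, 149 and 52.2 CPM in Healthy, 149, 328 and 355 in PanIN, with 96.7, 182 and 137 in Tumor (log2 fold change 1.29, SE 0.35, Benjamini-Hochberg adjusted p = 0.918 by edgeR). Stat2 stood at 57.3 to 101, 106 to 277 and 87.5 to 146 CPM (log2 fold change 1.11, SE 0.29). In both, PanIN 1 lay within the range of the others. Irf9, a DNA-binding partner of Stat2 (0.30, SE 0.27), and the receptor chains Ifnar1 (0.43, SE 0.24) and Ifnar2 (-0.02, SE 0.21) did not pass an unadjusted p of 0.05. In the list of 20 interferon genes, 19 were below the filter on low counts, 14 of them at 0 counts in every library, and Ifng, the only one tested, stood at 0 to 0.843 CPM. Which cells of the node could have made interferon was not measured.

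**Figure D3:**
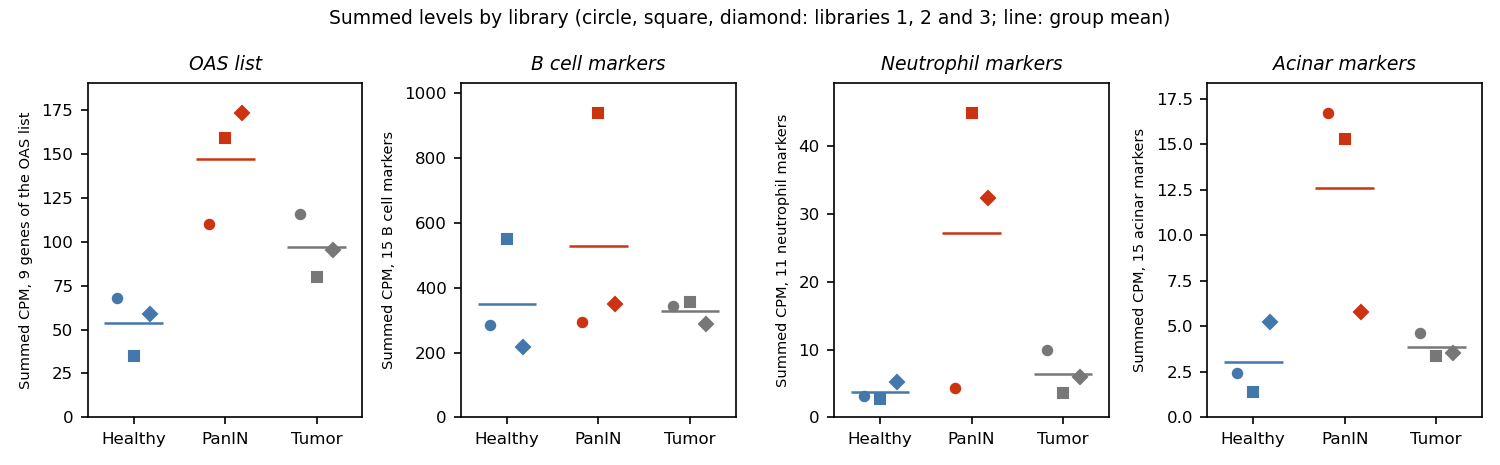
Summed CPM (y axes, from 0) of the OAS list, B cell markers, neutrophil markers and acinar markers in each library, by group (x axis); circles, squares and diamonds are libraries 1, 2 and 3 and lines are group means. PanIN 2 is high for B cell markers (938) and PanIN 2 and PanIN 3 for neutrophil markers (44.8 and 32.4), while PanIN 1 and PanIN 2 are high for acinar markers (16.7 and 15.3).

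Markers of other cell types were also higher in some PanIN libraries. The summed CPM of 15 B cell markers was 216 to 551 in Healthy, 294, 938 and 351 in PanIN and 287 to 357 in Tumor, with 14 of 14 tested markers higher (median 1.53) and 1 below the filter. The median was 0.13 without PanIN 2, and -0.15 within the shared title code. Neutrophil markers summed to 2.70 to 5.15 CPM in Healthy, 4.27, 44.8 and 32.4 in PanIN and 3.54 to 9.96 in Tumor, with 7 of 7 tested markers higher and 4 more below the filter. S100a8 and S100a9, the calprotectin chains, stood at 7.64 and 12 CPM in PanIN 2 and 5.71 and 7.77 in PanIN 3. Elane, the neutrophil elastase gene, was at 0 in all 9 libraries. S100a8 and S100a9 were at 0.081 CPM or less in PanIN 1, where the neutrophil sum lay within the range of the other groups. The part of these cells in the interferon result was not tested. Of other marker lists, cDC2 had 0 of 10 higher (median -0.36), erythroid and platelet 1 of 7 (-0.97), epithelial 2 of 11 (-0.61) and T cell 3 of 13 (-0.16). Tumor 1 had the largest sum for erythroid (242 CPM, 29.5 to 84.7 elsewhere), epithelial (134, 9.87 to 20.4) and T cell markers (818, 121 to 487). Without Tumor 1 the T cell median was 0.43, and the epithelial median over Healthy alone was 0.38. Medians were 0.33 for NK cell, 0.09 for plasma cell and 0.04 for plasmacytoid markers. They were -0.07 for macrophage and monocyte and -0.24 for stromal and endothelial markers. In bulk RNA, more cells of a type and more RNA per cell cannot be told apart.

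Pancreatic acinar transcripts were also higher in PanIN at very low levels. Ctrb1 (GRCm38 chromosome 8, 111686519 to 111691010), which encodes chymotrypsinogen, stood at 0.0291, 0.0262 and 0.268 CPM in Healthy, 6.21, 3.67 and 1.11 in PanIN, then 0.235, 0.143 and 0.223 in Tumor. PanIN lay above the other 6 libraries, among which Healthy and Tumor overlapped, and the log2 fold change was 4.54 (SE 0.73, Benjamini-Hochberg adjusted p = 0.171 by edgeR). Prss2, a trypsinogen, stood at 0.105 to 0.439 CPM in Healthy, 1.45 to 3.02 in PanIN and 0 to 0.665 in Tumor. Cel, a lipase, stood at 0.675 to 1.11 CPM in PanIN, at most 0.134 in Healthy and at 0 in Tumor. Of 10 tested acinar markers 7 were higher, 3 of them with PanIN above all others, and 5 more were below the filter. Over all genes 45.5% were higher, and in 0.961% PanIN lay above all others. The summed acinar level was 16.7, 15.3 and 5.77 CPM in PanIN, 1.39 to 5.23 in Healthy and 3.40 to 4.64 in Tumor, and its source was not tested.

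On the lower side, the largest difference among the named coding genes was that of Gp2 (ENSMUSG00000030954, GRCm38 chromosome 7, 119442537 to 119459285, minus strand), which encodes a membrane glycoprotein of zymogen granules that also serves as a bacterial receptor on M cells. It stood at 2.73, 3.36 and 3.00 CPM in Healthy, 1.13, 0.697 and 0.543 in PanIN, against 6.36, 4.82 and 4.90 in Tumor. None of the 3 groups overlapped another, and PanIN lay lowest. The log2 fold change was -2.35 (SE 0.42, Benjamini-Hochberg adjusted p = 0.331 by edgeR), with -1.94 against Healthy and -2.76 against Tumor side by side. Gp2, also known as a gene of acinar cells, was thus low in the libraries where Ctrb1 was high. Cpne8, a calcium-dependent membrane-binding copine, stood at 11.7, 11.7 and 11.2 CPM in Healthy, 10.4, 7.46 and 6.88 in PanIN, with 29.4, 31.6 and 21.0 in Tumor, so PanIN was close to Healthy and far below Tumor (log2 fold change -1.1, SE 0.24). Ffar2, a receptor for short-chain fatty acids, stood at 18.8 to 30.3, 9.78 to 17.5 and 18.7 to 21.2 CPM, with PanIN below both.

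**Figure D4:**
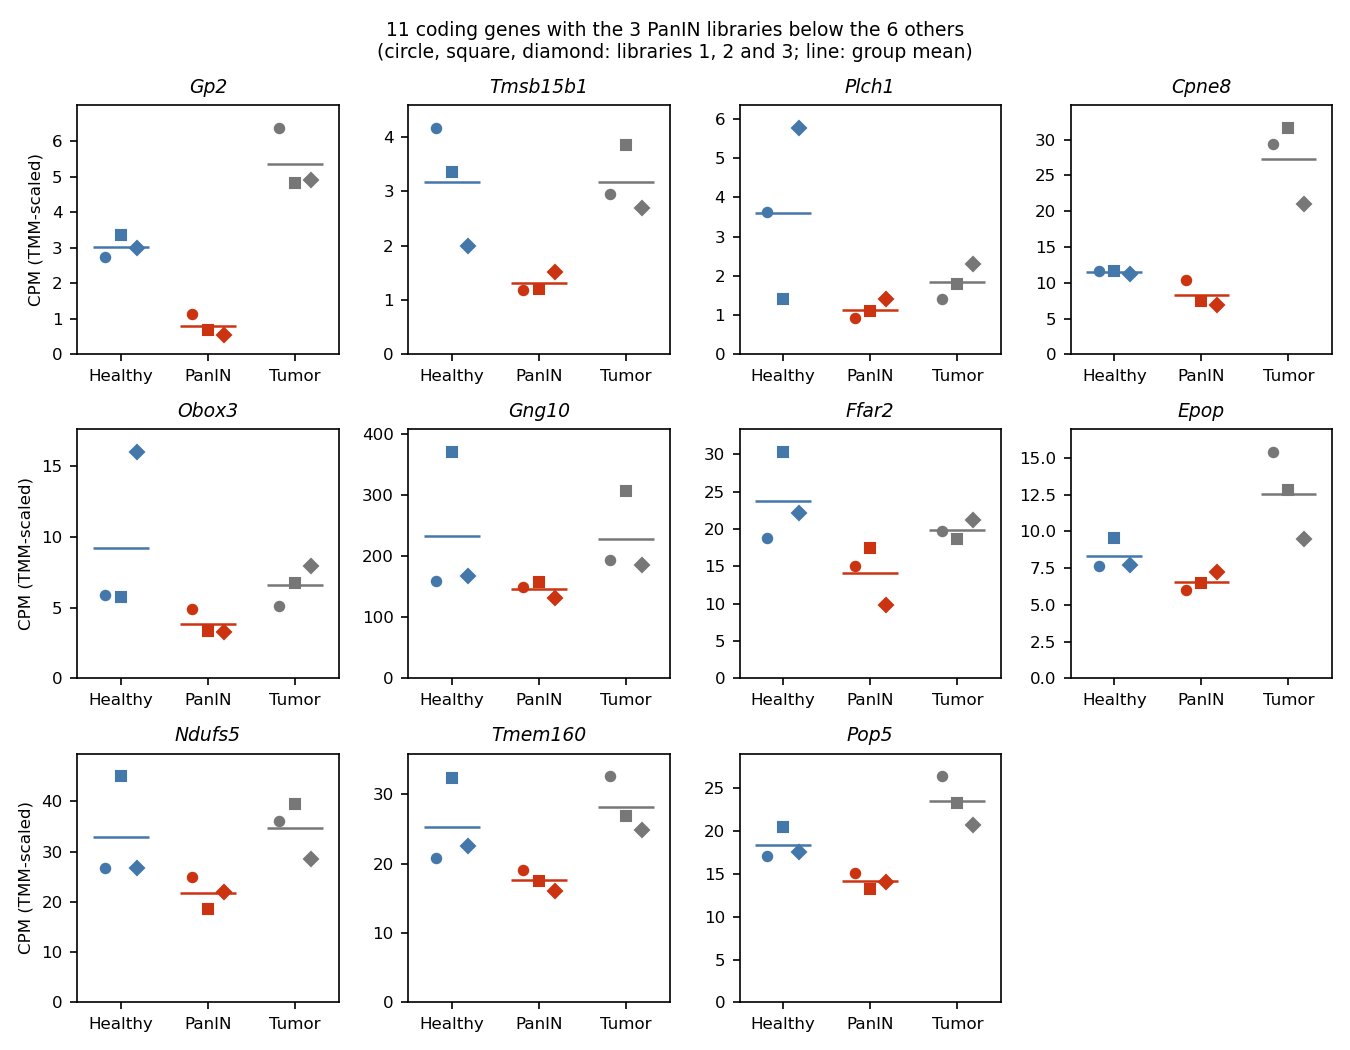
Level in CPM (y axis, from 0) of 11 of the 12 coding genes with the largest negative log2 fold change among those where the 3 PanIN libraries lay below the 6 others, by group (x axis); circles, squares and diamonds are libraries 1, 2 and 3 and lines are group means. In Gp2 the PanIN libraries sit at 0.543 to 1.13 CPM under 2.73 to 6.36 in the others, while in several panels PanIN 1 is close to the lowest of the others, as in Cpne8 at 10.4 against 11.2.

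The interferon lists held 137 of the 24133 genes tested, and the respiratory chain and ATP synthase subunits gathered by symbol held 77. The rule for named genes was met by 45 coding genes above and 21 below. Of those above, 19 belonged to the interferon lists, and Xdh, the purine-degrading xanthine dehydrogenase (6.85 to 11.5 CPM in Healthy, 11.7 to 24.1 in PanIN, 7.72 to 10.6 in Tumor), and Fbxo48, an F-box gene at 0.293 to 4.44 CPM, were the only others among the top 12. Of those below 0 were interferon list members and 4 were subunits of the respiratory chain or ATP synthase. One of these, Ndufs5 of complex I, stood at 26.8, 45.0 and 26.8 CPM in Healthy, 25, 18.5 and 22 in PanIN, against 36.1, 39.4 and 28.6 in Tumor (log2 fold change -0.63, SE 0.23). Others named below, Tmsb15b1, Plch1, Obox3, Gng10, Epop, Tmem160 and Pop5, had log2 fold changes of -1.27 to -0.55. Of these Gng10 and Tmsb15b1 share 79.3% and 65.8% of their 31-base words with other genes.

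The respiratory chain list had small differences nearly all in 1 direction. Of its 39 nuclear genes 38 had a negative log2 fold change (54.5% of all genes did), with a median of -0.34. PanIN had the lowest group mean in 37 (94.9%, against 24.6% of all genes). Side by side the median was -0.25 against Healthy and -0.42 against Tumor. The list's mean log2 CPM was 6.26, 6.86 and 6.15 in Healthy 1 to 3 and 6.31, 6.08 and 6.26 in PanIN 1 to 3. In Tumor 1 to 3 it was 6.66, 6.79 and 6.39. PanIN thus overlapped Healthy 1 and Healthy 3, and Healthy 2 was the highest library. Only Ndufb9 (log2 fold change -0.54, SE 0.22) had an unadjusted p under 0.05. Gathered by symbol after seeing the data, 76 of 77 respiratory chain and ATP synthase subunits, 73 of 78 cytosolic ribosomal proteins (median -0.42), 73 of 78 mitochondrial ribosomal proteins (median -0.28) and 13 of 13 mitochondrially encoded proteins (median -0.35) were negative too. For mitochondrially encoded proteins the median was -0.11 against Healthy and -0.66 against Tumor. Their sums were 26800 to 31000 CPM in Healthy, 19700 to 34000 in PanIN and 34000 to 46500 in Tumor, so PanIN overlapped Healthy. Cytosolic ribosomal proteins summed to 54000, 91300 and 43700 CPM in Healthy 1 to 3. They summed to 44600 to 52900 in PanIN and 53100 to 72900 in Tumor. The size of the difference in all these lists depends on the scale, and in some of them the direction does too. On log2(TPM + 0.1), where the median over all genes was 0.28, the 39 respiratory chain genes had a median of 0.0 with 20 positive. On that scale the medians were -0.04 for the 77 subunits, -0.06 for cytosolic ribosomal proteins, 0.09 for mitochondrial ribosomal proteins and -0.05 for mitochondrially encoded ones, all below that of all genes.

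Differences varied with transcript length in coding genes whose average was 4 log2 CPM or more. The median log2 fold change was -0.27 for 604 genes under 750 bases, -0.07 for 1323 genes of 1000 to 1500 bases and 0.14 for 355 genes of 6000 bases or more. In these bins it was -0.13, 0.03 and -0.02 for PanIN minus Healthy. For PanIN minus Tumor it was -0.42, -0.14 and 0.32, a wider range. The respiratory chain list has a median length of 687 bases, and genes in its middle range of lengths had a median of -0.19, against -0.34 for the list. For cytosolic ribosomal proteins the values were -0.24 and -0.42. The OAS list stood at 1.14 where genes of its lengths had a median of -0.01. The sensors stood at 0.62 against 0.04 and the antiviral effectors at 0.60 against -0.03. The comparison genes had at least 4 log2 CPM, while the lists had no such cut. The OAS list averaged 1.22 to 3.58 log2 CPM by library, so it was set beside genes of higher level. The part of length in the higher or the lower side was not tested.

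**Figure D5:**
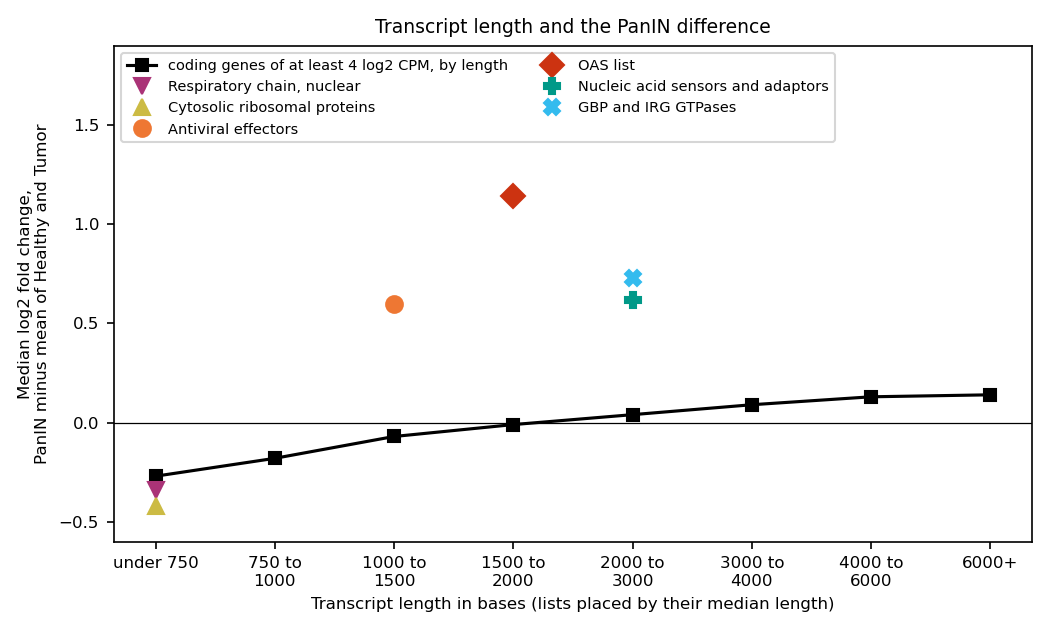
Median log2 fold change of PanIN minus the mean of Healthy and Tumor (y axis) for coding genes of at least 4 log2 CPM in 8 bins of transcript length (x axis, bases; black squares), with 6 gene lists at the bin of their median length (coloured marks). Short-transcript lists, at -0.34 and -0.42, lie below the black line at -0.27. The interferon lists drawn (antiviral effectors, OAS list, sensors, GBP and IRG) lie above the line at 0.60 to 1.14. Of those not drawn, the list of interferon receptors, JAK, STAT and IRF had a median of 0.22.

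Other programs of the dendritic cell did not peak at PanIN. The maturation list, genes that equip the cell to migrate and to activate T cells, had a median of -0.01 over 33 members, with 15 higher and 0 at an unadjusted p under 0.05, with PanIN between the others: the median was 0.62 over Healthy and -0.73 against Tumor. Tumor had the highest group mean in 32 of the 33. In mean log2 CPM the list stood at 6.96, 4.73 and 6.29 in Healthy 1 to 3 and 7.37, 6.9 and 6.52 in PanIN 1 to 3. PanIN thus overlapped Healthy, and Healthy 2 was the lowest library. The median against the mean of both groups was 0.36 without Healthy 1. It was -0.4 with Healthy 2 and Healthy 3 both left out. Ccr7, the chemokine receptor for migration to the node, stood at 1265, 57.2 and 419 CPM in Healthy, 1518, 970 and 666 in PanIN, with 2602, 1097 and 1584 in Tumor. PanIN overlapped both other groups. The lists of NF-kB and TNF response (0.41 and -0.32), cytokines and chemokines (0.45 and -0.58) and tolerogenic and checkpoint genes (0.42 and -0.41) had the same shape. MHC class I presentation stood at 0.20 and -0.33, although Nlrc5, its transcriptional activator, was at 57.7 to 157 CPM in Healthy, 255 to 404 in PanIN and 141 to 365 in Tumor. MHC class II genes had 9 of 11 members negative with a median of -0.19. Without Healthy 2 the median was 0.02, with 9 of 11 positive. Their summed CPM was 31900, 66500 and 26000 in Healthy 1 to 3, 29400 to 39400 in PanIN and 32100 to 46200 in Tumor.

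The IL-6, JAK and STAT3 list had a median of 0.19, with 20 of 26 higher. Side by side the median was 0.42 over Healthy and -0.16 against Tumor. Tumor had the highest group mean in 17 members and PanIN in 9. Socs3, the feedback inhibitor of that pathway, stood at 14.2, 12.9 and 11.8 CPM in Healthy, 22.1, 30.7 and 37.6 in PanIN, against 38.2, 25.2 and 30.5 in Tumor, level between PanIN and Tumor (log2 fold change 0.58, SE 0.22). Among the tolerogenic genes Lgals9, which encodes the TIM-3 ligand galectin-9, stood at 14.6 to 40.4, 40.5 to 62.9 and 27.3 to 44.0 CPM (log2 fold change 0.69, SE 0.29). Cell cycle (-0.03), unfolded protein response (0.01), heat shock (0.02), immediate early (0.05), cholesterol synthesis (-0.14), glycolysis and hypoxia (-0.12), pro-apoptotic (0.01), anti-apoptotic (0.01) and cross-presentation genes (0.00) had medians near that of all genes. In these lists 2 members had an unadjusted p under 0.05, Egr3 and Fcgr4, both higher.

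The smallest p by edgeR was that of a gene that does not peak at PanIN. Pgam1-ps2, a pseudogene named after its values were seen, averaged 21.8 CPM in Healthy, 13.2 in PanIN and 0 in every Tumor library, so PanIN lay between the others. Its Benjamini-Hochberg adjusted p by edgeR was 0.102 against the mean of both groups, while its unadjusted p in the stricter test was 1. Isg15, Tlr9 and Slfn3 likewise had an unadjusted p under 0.05 by edgeR against the mean while PanIN was level with 1 of the other groups.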

How the data were processed

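The authors deposited estimated counts per transcript, not normalized, and TPM, scaled for transcript length and to the same total. Per the submitters' processing notes the tool was Salmon and the genome build mm10; its version is not given in the sources used, and the names of the deposited files mention another quantifier. Of 136288 transcripts, 136176 were matched to GENCODE M21 and summed to 53458 genes, which held at least 99.963% of each library's counts. Sums were rounded and fitted with edgeR 4.0.16 (TMM factors 0.83 to 1.192, default filter on low counts) in R 4.3.3 over all 9 libraries, without covariates. The contrast was PanIN minus the mean of Healthy and Tumor, two-sided. P-values were adjusted over the 24133 genes kept. The stricter test doubled the smaller p of its 2 directions. The fit was tested on simulated data. DESeq2 1.42.0 and limma 3.58.1 were alternatives. Group labels are the stages, and replicate numbers follow accession order only.

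Named genes were coding, had a mean of at least 1 log2 CPM, an unadjusted p under 0.05 and 3 PanIN libraries beyond the 6 others, with the 12 largest differences in each direction, up to 4 members of each list by p, and 12 chosen genes. Other list members were named after their values were seen. The comparison, the genes named and the gene lists were chosen with earlier results of these data known. Summed CPM covers all listed genes. A few genes are not reported here.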

Additional observations from a re-analysis of the deposited data

How the results depend on the processing

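Of 24133 genes, 0 were called against the mean of Healthy and Tumor. The count was also 0 with RLE factors, at least 50 counts in 3 libraries, protein-coding genes alone, or Healthy and Tumor as 1 group. It was 44 by DESeq2, 118 by limma-voom with sample weights, 49 with no low-count filter, 5 on log2(TPM + 1), 4 on log2(TPM + 0.1), 1 when the shared title code was a term and 3 among the 6 libraries outside it. With Healthy 2 and Healthy 3 both left out, tried after the data were seen, it was 2. Leaving out single libraries gave 0 to 14. The 14 were without PanIN 1 and held Oas3, Xaf1, Ifi203, Ifi213, Mndal, S100a8 and S100a9. It was 2 without Tumor 3 and 1 without Healthy 3. Against each of Healthy and Tumor the count was 0 under every alternative that gave a value except DESeq2 (5). The cause was not tested. The limma-voom weights ran from 0.17 for Healthy 2 to 4.32 for Healthy 1. Over 21 alternatives, 63 of 2431 values of the named genes and 115 of 902 list medians had the opposite sign. No paired analysis was possible because the labels carry no replicate numbers and the shared title code ties only 1 library of each group. Depth, 32150281 to 68934430 estimated counts a library, limits what can be said of genes with few counts, such as the acinar markers.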
